A study of Mus musculus with 2 samples.

Results

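The contacts described here join 1 gene-end anchor to a stretch of DNA with no gene end, 50 to 195 kb away, in hair matrix keratinocytes of the mouse. Each is a pixel, a pair of 5 kb bins on 1 chromosome that the authors' loop caller found enriched in Hi-C. A pixel was a member where exactly 1 of its bins had an annotated end of a protein-coding gene (RefSeq, GRCm38) within 5 kb of the bin. The WT list held 1676 members among its 5811 pixels and the DKO list 1345 among 4872, and 634 members were listed at the same bins in both. Counted once, that made 2387 distinct members among 8743 distinct pixels.

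Hi-C joins and sequences pieces of DNA that were near each other when the nuclei were fixed. There were 2 libraries, 1 per genotype, both from sorted primary hair matrix keratinocytes at postnatal day 4.5. The WT library came from wild-type mice, and the DKO library from mice labelled Tet2/Tet3 DKO with Krt14-Cre, a recombinase driven by the promoter of keratin 14. That promoter is active in epithelial cells, so cells of other lineages in a sort would keep both genes. The labels give neither the number of animals per library nor whether the WT mice carried Cre. With 1 library a genotype there is no test, and every difference given here compares these libraries, not the genotypes.

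The hair matrix is the proliferative epithelium of the follicle bulb, whose progeny build the hair shaft and the inner root sheath. Chromatin loops form where cohesin extrudes DNA until it meets bound CTCF, and also where enhancers meet promoters, so a contact with a gene end at only one anchor can join a gene to a distal element. TET2 and TET3 oxidise 5-methylcytosine, a step towards removal of DNA methylation, which is found mainly at CpG dinucleotides. Contacts do not measure transcripts, so the cell type label could not be checked by expression. Of its 7 markers, Krt14, Msx2 and Dlx3 were at a member contact in both libraries and Foxn1 in WT alone, and Krt5, Lef1 and Hoxc13 were at none.

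The sequences below are the 250 bases before the start site of 6 genes whose contacts are described further on, with each CpG in capitals because it is the site of the methylation that TET enzymes act on. They are RefSeq promoter sequences of GRCm38.p6, written 5′ to 3′ on the gene's strand, and stop before transcribed sequence. Gadd45b lies at chr10:80929841-80930090 (plus strand), Fam131c at chr4:141367942-141368191 (plus), Eif4b at chr15:102073523-102073772 (plus), Wnt7a at chr6:91411354-91411603 (minus), Tcf7l1 at chr6:72789046-72789295 (minus) and Krt28 at chr11:99374904-99375153 (minus).
Gadd45b: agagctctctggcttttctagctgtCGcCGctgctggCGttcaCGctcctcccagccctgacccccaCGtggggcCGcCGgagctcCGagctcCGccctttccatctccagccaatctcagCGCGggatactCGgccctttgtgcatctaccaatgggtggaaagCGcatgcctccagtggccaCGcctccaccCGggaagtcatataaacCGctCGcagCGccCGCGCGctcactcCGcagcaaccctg
Fam131c: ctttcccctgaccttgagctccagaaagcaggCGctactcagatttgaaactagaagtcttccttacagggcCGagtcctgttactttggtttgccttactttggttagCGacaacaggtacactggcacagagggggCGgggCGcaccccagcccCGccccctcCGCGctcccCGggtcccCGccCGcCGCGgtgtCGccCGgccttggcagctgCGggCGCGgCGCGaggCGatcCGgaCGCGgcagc
Eif4b: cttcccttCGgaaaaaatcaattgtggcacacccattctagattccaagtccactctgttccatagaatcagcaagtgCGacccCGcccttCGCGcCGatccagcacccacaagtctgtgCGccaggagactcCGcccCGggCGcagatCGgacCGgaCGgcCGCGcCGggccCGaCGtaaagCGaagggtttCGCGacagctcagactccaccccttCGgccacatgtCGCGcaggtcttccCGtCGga
Wnt7a: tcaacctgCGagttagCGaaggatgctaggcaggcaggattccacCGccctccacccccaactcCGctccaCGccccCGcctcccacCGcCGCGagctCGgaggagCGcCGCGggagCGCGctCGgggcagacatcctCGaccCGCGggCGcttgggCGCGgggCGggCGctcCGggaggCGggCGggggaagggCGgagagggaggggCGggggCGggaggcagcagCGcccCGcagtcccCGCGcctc
Tcf7l1: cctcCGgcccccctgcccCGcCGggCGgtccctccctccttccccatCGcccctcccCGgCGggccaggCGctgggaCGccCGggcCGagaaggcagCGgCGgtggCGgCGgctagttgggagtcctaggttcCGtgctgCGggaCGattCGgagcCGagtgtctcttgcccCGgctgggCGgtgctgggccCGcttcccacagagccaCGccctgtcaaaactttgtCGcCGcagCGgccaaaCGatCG
Krt28: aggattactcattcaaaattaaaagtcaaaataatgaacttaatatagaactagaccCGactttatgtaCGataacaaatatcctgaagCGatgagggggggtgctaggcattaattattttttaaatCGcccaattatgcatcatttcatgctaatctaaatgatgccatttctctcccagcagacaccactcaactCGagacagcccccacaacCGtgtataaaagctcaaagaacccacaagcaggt
Wnt7a had the most CpG dinucleotides of the 6, at 34, followed by Tcf7l1 with 29, Eif4b with 26, Fam131c with 24 and Gadd45b with 22. Krt28, a keratin gene of the inner root sheath, had 6.

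Gene starts at member contacts had CpG-rich promoters. The RefSeq promoter table, which runs 250 bases before to 50 after each start, held 17492 of the 21887 protein-coding genes (79.9%). Of those, 534 had their start at a member contact in WT and 480 in DKO. Their median CpG number in the 300 bases was 19 in both libraries (95% interval of the median 17 to 21), against 13 over all promoters. The share with 10 or more CpG dinucleotides was 74.3% (70.4 to 78.0) in WT and 73.5% (69.4 to 77.4) in DKO, against 57.2% of all promoters. Starts at mid-range contacts that join 2 gene ends had a median of 21, and 77.5% of them in WT and 78.8% in DKO held 10 or more.

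Fewer members were called in the DKO library. The WT count was 1676 (exact Poisson 95% interval 1597 to 1758) and the DKO count 1345 (1274 to 1419), a DKO/WT ratio of 0.803 (0.746 to 0.863). Contacts of the same spans that join 2 gene ends numbered 939 and 859, a ratio of 0.915 (0.833 to 1.0), and those with no gene end 1098 and 957, a ratio of 0.872 (0.798 to 0.951). Over all pixels of the lists the ratio was 0.838 (0.807 to 0.871), so a lower DKO count was not particular to the members. The interval for members overlaps all of these, and the difference between the ratios was not tested. All intervals here cover counting error only and treat pixels as independent, which neighbouring pixels are not. When pixels whose anchors both lay within 20 kb were joined into 1 contact, there were 885 member contacts in WT and 787 in DKO, a ratio of 0.889 (0.807 to 0.980). By contact the ratio was 0.979 (0.871 to 1.10) for 2 gene ends and 0.960 (0.854 to 1.08) for no gene end. Over all pixels joined in this way it was 0.910 (0.863 to 0.960). Single pixels made up 56.3% of the member contacts in WT and 63.7% in DKO.

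The median DKO/WT ratio of the expected counts at shared pixels was 0.973 over the whole lists and 0.967 at the members. These counts are a local background at pixels called in both libraries and do not measure read depth. The observed counts summed to 113348 over the WT list and 95103 over the DKO list, of which 34000 and 27009 were at members. Those sums move with how many pixels were called. The part that depth plays in the lower DKO count was not tested. A member rested on a median of 19 raw contacts in each library, with a range of 11 to 68 in WT and 11 to 57 in DKO.

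Fewer member pixels were called in DKO in each span class. At 50 to 95 kb there were 809 members in WT and 688 in DKO, a ratio of 0.850 (0.767 to 0.943). At 100 to 145 kb the counts were 504 and 386, a ratio of 0.766 (0.669 to 0.876), and at 150 to 195 kb they were 363 and 271, a ratio of 0.747 (0.635 to 0.876). By contact the ratios in the same order were 0.945 (0.825 to 1.08), 0.836 (0.701 to 0.996) and 0.802 (0.648 to 0.991). The interval of the shortest class then included 1. By either count the intervals of the 3 classes overlap, and the difference between them was not tested. The median span was 100 kb (95 to 105) in WT and 95 kb (95 to 100) in DKO. By chromosome, the DKO share of member pixels was between 40.0% and 62.5%, with the share over all chromosomes, 44.5%, inside every interval. The highest share was on X, which held 3 WT and 5 DKO members.

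**Figure D1:**
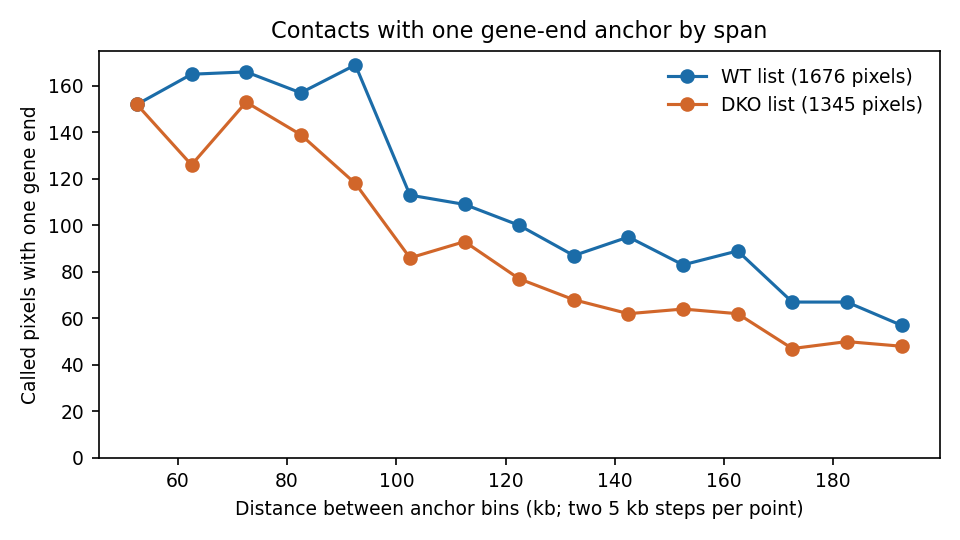
Number of called member pixels (vertical axis) against the distance between the anchor bins in kb (horizontal axis, 10 kb per point), for the WT list (blue) and the DKO list (orange). Both lists thin out with distance, from 809 and 688 pixels at 50 to 95 kb to 363 and 271 at 150 to 195 kb, and DKO lies at or below WT at every point.

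The limits of the rule did not fall at a break in the values. Pixels with 1 gene end numbered 77 in WT and 75 in DKO at 45 kb, just outside the lower limit, with a median observed over expected count of 3.68 and 3.65. At 50 kb they numbered 70 and 67, with medians of 3.97 and 4.03. At 195 kb there were 34 and 23, and at 200 kb, just outside, 27 and 13, with medians of 5.52 and 6.15 inside and 5.86 and 6.08 outside. For 441 WT and 346 DKO members the anchor called free of gene ends had one between 5 and 10 kb away, and their median enrichment was 4.92 and 4.95. Among contacts joining 2 gene ends, 669 in WT and 579 in DKO had at least 1 of those ends outside its bin, and their medians were 4.71 and 4.67.

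Enrichment relates the observed count to the count expected from the donut-shaped neighbourhood of the pixel. Its median over members was 4.97 (4.91 to 5.05) in WT and 4.94 (4.83 to 5.02) in DKO. It was 4.64 and 4.55 for contacts joining 2 gene ends and 5.17 and 5.13 for contacts without one. Members therefore lay between these classes in each library. A pixel was listed because it was enriched, so these levels describe the lists and test nothing. Within WT the median was 4.56 at 50 to 95 kb, 5.07 at 100 to 145 kb and 5.74 at 150 to 195 kb. The median expected count was 4.52 in the shortest class and 3.15 in the longest.

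Members were called again in the other library more often than pixels in general. Of the WT members 37.8% (35.5 to 40.2) were in the DKO list at the same bins, against 33.4% of all WT pixels. Of the DKO members 47.1% (44.4 to 49.8) were in the WT list, against 39.8% of all DKO pixels. For contacts joining 2 gene ends the shares were 33.2% (30.2 to 36.3) and 36.3% (33.1 to 39.6), and for contacts without a gene end 36.7% (33.8 to 39.6) and 42.1% (39.0 to 45.3). In DKO the member interval lies above that of contacts joining 2 gene ends, and its lower end falls below the upper end for contacts without a gene end. With a pixel of the other list allowed within 2 bins (10 kb) at both anchors, the shares of members were 74.2% in WT and 79.6% in DKO, against 65.4% and 65.4% for 2 gene ends and 74.1% and 73.6% for none.

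Recurrence followed the observed count. Of WT members with 11 to 15 contacts 11.4% (8.35 to 15.1, n = 368) were in the DKO list at the same bins. With 16 to 20 contacts the share was 30.3% (n = 686), with 21 to 29 it was 57.1% (n = 492), and with 30 or more 79.2% (71.2 to 85.8, n = 130). The DKO shares in the same order were 20.9% (n = 292), 40.5% (n = 566), 65.9% (n = 390) and 89.7% (81.9 to 94.9, n = 97). Absence from a list therefore says little for a member of few contacts. Within 2 bins, 126 of the 130 WT members with 30 or more contacts and 95 of the 97 in DKO had a pixel in the other list.

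**Figure D2:**
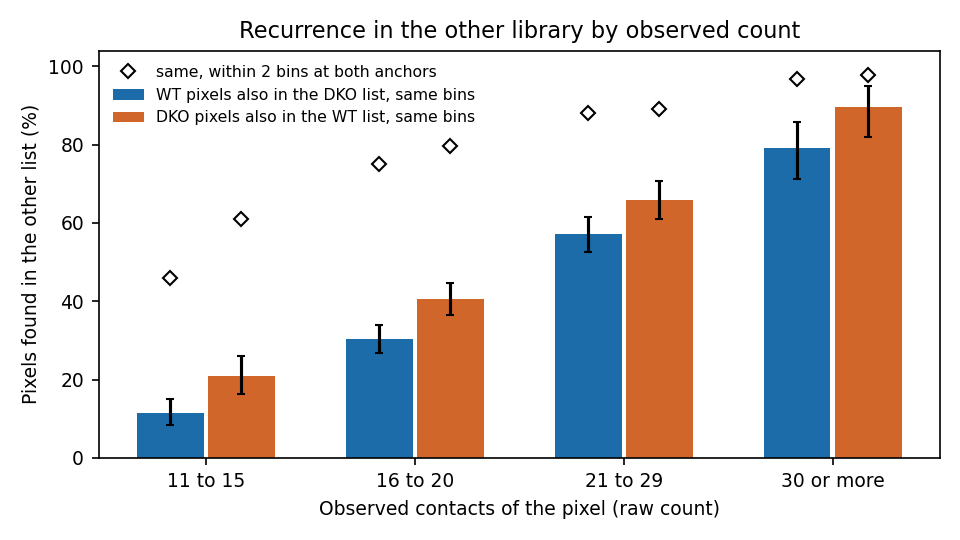
Share of member pixels found in the other library's list (vertical axis, %) by the raw observed count of the pixel (horizontal axis), as bars for the same bins with exact 95% binomial intervals and as diamonds for a pixel within 2 bins at both anchors. The share at the same bins rises from 11.4% to 79.2% for WT (blue) and from 20.9% to 89.7% for DKO (orange).

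The 6 exceptions with 30 or more contacts were few enough to name, and were chosen after their values were seen. In WT they were the pixels at Acbd4 and Plcd3 (30 contacts, 55 kb, enrichment 4.30), at Pim1, a serine/threonine kinase (33 contacts, 95 kb, 4.43), at Col27a1, a fibrillar collagen gene (31 contacts, 90 kb, 4.41), and at Ptprf, a receptor tyrosine phosphatase gene (33 contacts, 75 kb, 6.47). Both the Col27a1 and the Ptprf pixel ended inside the gene itself. In DKO they were the pixel at Nxnl1, Slc27a1 and Tmem221 that ended in Unc13a (31 contacts, 70 kb, 4.77) and the pixel at Cish, an inhibitor of cytokine signalling, and Mapkapk3 (30 contacts, 65 kb, 4.67).

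Enrichment differed little at the 634 pixels that both lists held. The median log2 DKO/WT ratio was -0.02 (-0.05 to 0.01), and the quartiles were -0.24 and 0.21. A ratio past 1.5 times was found at 57 pixels (8.99%), 21 higher and 36 lower in DKO, against 8.81% of the 1940 pixels of the whole lists, 3.56% higher and 5.26% lower. The member share is near this background. The exact 95% interval of the ratio, with expected counts taken as fixed, left out 1 at 3 pixels higher in DKO and 6 lower, against 11 and 20 over the whole lists. A pixel had to be called in each library to be compared, so a contact lost from either list is not among these.

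**Figure D3:**
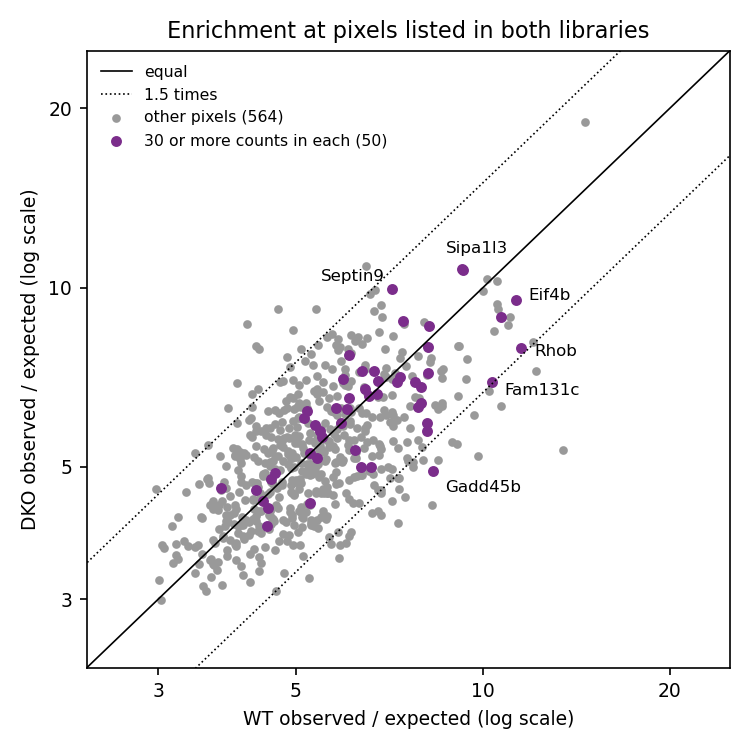
Observed over expected contacts in DKO (vertical axis, log scale) against WT (horizontal axis, log scale) at 614 member pixels listed in both libraries, with 20 of the 634 left out because an expected count was under 1. The 50 pixels with 30 or more counts in each library are purple, and the dotted lines mark a ratio of 1.5 times either way, past which Gadd45b lies below.

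The annotated ends at the gene-end anchor were of both kinds. Strand came from the promoter table. Of all WT members 32.3% had a gene start alone at this anchor, 31.7% the end of a gene alone and 16.8% both. For the remaining 19.2% no strand was in the table. In DKO these shares were 33.7%, 28.6%, 17.5% and 20.1%. Starts thus made up 50.5% (47.4 to 53.5) of the anchors with a start or an end alone in WT and 54.1% (50.6 to 57.5) in DKO. Contacts joining 2 gene ends had more starts by pixel, 56.8% (53.8 to 59.8) in WT and 61.5% (58.4 to 64.5) in DKO. These intervals lie apart from those of the members, but they count neighbouring pixels as independent. With 1 pixel per contact the member shares were 52.0% (47.8 to 56.2) in WT and 54.8% (50.4 to 59.2) in DKO, which overlap them. The share by contact was not computed for 2 gene ends. Members listed in DKO alone had 57.8% starts (53.0 to 62.4), those in WT alone 50.8% (47.0 to 54.6). These last intervals overlap.

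Direction was read at members with a gene start alone and a single direction. The contact ran towards the gene body in 279 of 496 of these in WT (56.2%, 51.8 to 60.7). In DKO it did so in 228 of 426 (53.5%, 48.7 to 58.3). The WT interval leaves out an even split and the DKO interval includes it. The share that the membership rule itself would give was not computed. Along the chromosome, the gene-end anchor was the left one in 48.9% (46.5 to 51.3) and 51.0% (48.3 to 53.7), with both intervals including an even split. The expected count along the gene-end anchor was close to that along the other anchor, with a median log2 ratio of 0.01 (-0.01 to 0.03) in WT and -0.00 (-0.03 to 0.03) in DKO. By this measure the contacts around a member were no denser on the gene side. A single gene lay at the gene-end anchor in 73.9% of WT and 72.5% of DKO members. No other gene end lay between the anchors in 23.3% and 22.3%.

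The anchor without a gene end lay a median of 16.9 kb from the nearest gene end in WT and 17.3 kb in DKO. It was inside the body of the gene whose end formed the first anchor in 16.1% (14.4 to 18) of WT members and 15.3% (13.4 to 17.4) of DKO members. It was inside another protein-coding gene in 36.6% and 34.7%, and outside gene bodies in 47.3% and 50%. Any gene body thus held 52.7% (50.3 to 55.2) in WT and 50% (47.3 to 52.7) in DKO, against 36.1% of all genome bins without a gene end and 48.4% and 48.3% of the anchors of contacts without a gene end. An annotated end of a long noncoding RNA gene was within 5 kb in 21.9% (19.9 to 24.0) and 23.5% (21.3 to 25.9), against 9.47% of genome bins without a gene end. The anchors of contacts without a gene end stood at 23.0% and 24.1%, so both features were shared by called anchors of either class. Contacts that ended inside the anchored gene had a median span of 90.0 kb in WT and 85.0 kb in DKO. Those outside gene bodies had 100 and 95 kb, and those inside another gene 110 and 105 kb. The length of the gene limits the first class by its definition and not the others, so shorter spans there are no separate result.

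**Figure D4:**
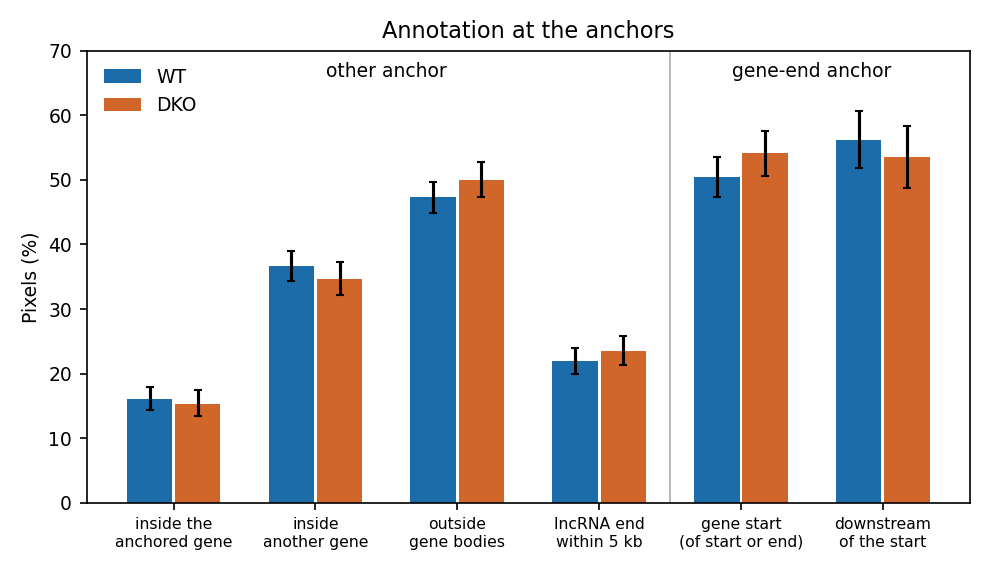
Share of member pixels (vertical axis, %) by the annotation of the anchor without a gene end (left of the line) and of the gene-end anchor (right of the line), with exact 95% binomial intervals, for WT (blue) and DKO (orange). Right of the line the shares are of members with a start or an end alone, and of those with a start alone and a single direction. The intervals of the libraries overlap in every class, from 16.1% and 15.3% inside the anchored gene to 47.3% and 50% outside gene bodies.

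The contacts most enriched in both libraries sat at genes of varied function. The pixel from Eif4b, a translation initiation factor gene with the CpG-rich promoter shown above, to a bin inside Krt78 had 44 contacts in WT and 38 in DKO, an enrichment of 11.3 (8.21 to 15.2) and 9.55 (6.76 to 13.1) over 80 kb. Its gene-end bin was within 5 kb of the Eif4b start and did not contain it. The pixel from the end of Nf1, which encodes the RAS-inhibiting neurofibromin, into Rab11fip4 had 35 and 28 contacts, an enrichment of 10.00 and 9.87 over 105 kb. The Sipa1l3 start joined a bin 140 kb downstream inside the same gene with 42 contacts in WT and 40 in DKO, an enrichment of 9.29 and 10.7. The end of Ctdsp2, a phosphatase gene, had 49 and 57 contacts at 75 kb, 9.25 and 10.8.

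A further pair of pixels was among the most enriched in both. The bin with 4930590J08Rik and Ccdc174 joined a bin in Fgd5 165 kb away with 36 and 27 contacts (10.5 and 9.40). Rpl29, a ribosomal protein gene, joined Poc1a at 115 kb with 41 and 48 (8.20 and 8.63). The DKO/WT interval included 1 at each of the pixels named in this group.

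Among the 51 pixels with 30 or more contacts in each library, which fell into 40 contacts, the lowest ratio was at Gadd45b, a stress-response gene linked to active DNA demethylation. The bins chr10:80925001-80930000 and chr10:80990001-80995000, the second inside Gng7, had 55 contacts in WT and 31 in DKO, an enrichment of 8.31 (6.26 to 10.8) and 4.93 (3.35 to 6.99) and a DKO/WT ratio of 0.593 (0.369 to 0.937). This pixel was chosen for its ratio, so the interval tests nothing. The adjoining Gadd45b pixel, 5 kb nearer, had 55 and 40 contacts, a ratio of 0.728 (0.472 to 1.11). Next to it on the other side, at 70 kb, the counts were 26 in WT and 30 in DKO. With the pixels of the neighbouring gene Lmnb2, which encodes a nuclear lamin, the contact held 7 pixels in WT and 5 in DKO, so it was found in both libraries and differed by pixel. The counts summed to 222 over the 7 called pixels in WT and 154 over the 5 in DKO, so the sums differ partly because more pixels were called in WT.

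Fam131c had the next lowest ratio, at the pixel with the most contacts of all members in WT. The bins chr4:141360001-141365000 and chr4:141270001-141275000 had 68 contacts in WT and 47 in DKO, an enrichment of 10.3 (8.03 to 13.1) and 6.94 (5.10 to 9.23) and a ratio of 0.671 (0.452 to 0.987), which again tests nothing because the pixel was chosen for its ratio. The gene-end bin was within 5 kb of the Fam131c start, whose promoter holds the 24 CpG dinucleotides shown above, and the other bin was near an end of the noncoding gene Gm13056. The pixel 5 kb nearer had 49 contacts in WT and 48 in DKO, with an enrichment of 6.56 and 6.57. The contact spread over 4 called pixels in WT and 7 in DKO, and their counts summed to 162 and 207. Such sums move with how many pixels were called.

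A low ratio was also found at Rhob, a small GTPase gene, whose pixel in Hs1bp3 had 40 and 30 contacts (0.687, 0.413 to 1.13). The highest ratios were at the bin of 4833420G17Rik and Tmem267, at 1.49 (0.954 to 2.33) from 39 and 48 contacts, where both expected counts were under 1. Next was the end of Septin9, a cytoskeletal GTPase gene, joined to its own body 120 kb away, with 35 and 42 contacts (1.39, 0.869 to 2.25). Msi1, an RNA-binding protein gene of progenitor cells, also joined its own body, with 31 and 35 (1.26, 0.757 to 2.12). Atoh8, a helix-loop-helix factor gene, had 33 and 34 (interval 0.733 to 2.03). All of these 5 intervals included 1.

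Contacts that are broad in 1 library and missing from the other were rare. Among member contacts with 3 or more pixels, those without a pixel of the other list within 2 bins at both anchors numbered 16 of 187 for WT (8.56%, 4.97 to 13.5). For DKO they numbered 2 of 143 (1.40%, 0.170 to 4.96). A WT contact is looked for in the shorter of the lists. The same counts were 2 of 94 and 4 of 71 for contacts joining 2 gene ends, and 9 of 130 and 3 of 88 for contacts without a gene end. Contacts of a single pixel had no counterpart in 57.4% of WT and 44.5% of DKO cases.

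Tcf7l1, a TCF/LEF factor that represses WNT targets in hair follicle stem cells, held the WT contact of this kind with the highest count. Its start, with the promoter of 29 CpG dinucleotides shown above, joined 3 bins inside its own body with 24, 23 and 22 contacts. The first, chr6:72785001-72790000 with chr6:72650001-72655000, had an enrichment of 3.85 (2.47 to 5.74) over 135 kb. No DKO pixel was listed within 2 bins. Sema5b, a semaphorin gene, likewise joined its own body at 85 kb with 23 contacts (5.14, 3.26 to 7.71). The bins of Gfra3, Cdc23 and Cdc25c, on chromosome 18, had 23 contacts at 60 kb (4.41), and those of Acacb, an acetyl-CoA carboxylase gene, and Foxn4 had 21 at 60 kb, inside Myo1h (4.63).

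The only DKO contacts of this kind were at Mrtfa and at a bin cluster on chromosome 1. Mrtfa, a coactivator of serum response factor that responds to actin, joined 3 bins inside its own body with 26, 25 and 18 contacts in DKO, the first at 130 kb with an enrichment of 4.55 (2.97 to 6.66). The same Mrtfa bin joined a bin 170 kb away in both libraries, with 19 contacts in WT and 15 in DKO. The lists thus differed at one of the Mrtfa contacts and not at the other. The second was at Fam178b, Sema4c and Ankrd39, with 25 contacts at 75 kb, an enrichment of 2.94 (1.91 to 4.35), the lowest of the 6 contacts named here. Its deposited false discovery rate in the horizontal neighbourhood was 0.0927, and all listed pixels were under 0.1.

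Over both libraries the members formed 1179 separate contacts. Of these 492 held pixels of both libraries, 393 of WT alone and 294 of DKO alone. They touched 1601 genes, of which 118 had 2 or more contacts and 6 had 3 or more. Nkain1, which encodes a protein that interacts with a sodium pump subunit, had the most, at 4, with 3 found in both libraries. Its end joined bins in Zcchc17 at 190 kb (20 contacts in WT, 24 in DKO) and in Snrnp40 at 155 kb (13 and 15), and a bin outside genes on the other side at 105 kb (17 and 15). Its start joined Snrnp40 at 195 kb in DKO alone, with 14 contacts. Most of the Nkain1 pixels had expected counts near or under 1.

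Rgs3, a regulator of G-protein signalling, had 3 contacts, 2 of them in both libraries. Its start met its own body at 130 kb with 29 contacts in WT and 17 in DKO, and its end met a bin at 65 kb in WT with 25 contacts and at 70 kb in DKO with 21. Amotl2, an angiomotin-like gene, and Amz2 had 3 contacts with 1 in both, as did Pard6g, a cell polarity gene on chromosome 18. The 3 contacts of Ggcx, the gamma-glutamyl carboxylase gene, were 1 of WT and 2 of DKO, with none in both and counts of 12, 16 and 22. Some contacts of these genes were thus called in 1 list alone, which says little for pixels of few counts.

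The genes of the pathway and cell type lists were placed at member contacts by count. A list gene was counted also where another gene had an end at the same anchor, so such a contact cannot be assigned to the list gene alone. At the pixel with the most contacts this held for Notch1 (with Sec16a), Lgr4 (Ccdc34), Sufu (Actr1a), Fgfr3 (Letm1) and Jag2 (Nudt14). It also held for Itga3 (Pdk2), Uhrf1 (Arrdc5) and Dag1 (Bsn, whose body held the other anchor). Of all protein-coding genes 7.31% were at a member contact in either library, 5.49% in WT and 4.80% in DKO. The share found in both libraries was 2.97%, the share of WT alone 2.52% and that of DKO alone 1.82%. Hair transcription factors had 7 of 36 at a contact, of which 3 were found in both libraries, 3 only in WT and 1 only in DKO. Over the 13 lists the share at a contact in either library went from 0 for the melanocyte genes to 25% for the SHH, NOTCH, EDA, FGF and EGF genes and for the differentiation and junction genes. These shares are descriptions of lists chosen with results known.

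Dlx3, a homeobox gene needed for hair shaft formation, had the broadest contact of these, with 8 pixels in WT and 6 in DKO. At a shared pixel it had 29 contacts in WT and 28 in DKO (ratio 0.919, 0.527 to 1.60). Msx2, a homeobox gene of the matrix, had 29 and 24 (0.760, 0.424 to 1.35) at 60 kb, and Cux1, which is expressed in the inner root sheath lineage, had 35 and 28 (0.899, 0.527 to 1.52) at 55 kb. Msx1 with 14 contacts, Tcf7l1 and Foxn1 with 27 were listed for WT alone and Klf5 with 13 for DKO alone. For Foxn1, the nude gene, a DKO pixel of the whole list lay within 2 bins.

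Of 32 keratin genes found in the annotation, 4 were at a member contact, all in both libraries and in 3 separate contacts. The Krt8 bin, which was also within 5 kb of an end of Krt78, joined a bin 70 kb away. It had 40 contacts in WT and 37 in DKO, an enrichment of 7.27 and 6.95. It belongs to the same contact as the Eif4b pixel above, which lies 1 bin away at both anchors, and the whole contact had 10 pixels in WT and 6 in DKO. Krt10, a keratin of suprabasal epidermis, and Krt28 had adjoining bins that met 1 bin, with 20 and 27 contacts for Krt10 (ratio 1.16, 0.626 to 2.18) and 22 and 20 for Krt28 (0.830, 0.430 to 1.59). Krt14, whose promoter drives the Cre, had 2 pixels in WT and 5 in DKO. At 95 kb its counts were 27 and 27 (0.917, 0.518 to 1.63).

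WNT signalling, which drives matrix cells to form hair, had 7 of 41 genes at a contact, 6 of them in both libraries. The ligand gene Wnt7a stood highest, with 29 contacts in WT and 23 in DKO at 125 kb, an enrichment of 9.40 and 7.03 (ratio 0.748, 0.413 to 1.34). The distal bins of its 5 WT and 4 DKO pixels lay on the downstream side, outside genes, and its start has the CpG-richest promoter of the 6 shown. Wnt7b had 18 and 22 contacts (1.35, 0.690 to 2.66) at 105 kb, Wnt3 17 and 20 (1.01) in Nsf and Wnt11 21 and 19 (1.08). Lgr6, an R-spondin receptor gene of follicle stem cells, joined its own body at 115 kb with 25 and 27 (1.09, 0.611 to 1.96). Wnt4 had 17 contacts in each library at nearby bins, and Lgr4 had 15 in WT alone.

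Among BMP and TGF-beta genes 5 of 24 were at a contact, 3 of them in both libraries. Id3, a target of BMP signalling, had 23 and 28 contacts at the shared pixel (1.37, 0.761 to 2.49), the highest ratio among the list genes at 1 pixel each. Nog, which encodes the BMP antagonist noggin, had 23 and 20 (0.926) at 140 kb, and Smad6, an inhibitory SMAD, had 21 and 18 (0.852) at 60 kb. Bmp2 with 15 contacts was listed in WT alone and Smad3 with 14 in DKO alone, without a pixel of the other list within 2 bins for either.

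Of the SHH, NOTCH, EDA, FGF and EGF genes 9 of 36 were at a contact. Of these 2 were found in both libraries, 5 only in WT and 2 only in DKO. Notch1, the receptor gene, had 2 contacts in both libraries, with 24 and 29 counts at a pixel of 115 kb (1.26, 0.708 to 2.26). Igf1r joined its own body at 180 kb with 21 and 19 (1.13, 0.574 to 2.21). Those of WT alone were Sufu, Hes1, Edar, Edaradd and Fgfr3, with 24, 17, 17, 21 and 28 contacts. A DKO pixel lay within 2 bins of all 3 Fgfr3 pixels, so its listing for WT alone rests on the choice of bin. Jag2 and Egfr were listed in DKO alone, with 19 and 14 contacts.

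Differentiation and junction genes had 9 of 36 at a contact. Of these 3 were found in both libraries, 2 only in WT and 4 only in DKO. Pkp1, a desmosomal plakophilin gene, had 41 and 36 contacts at 75 kb (0.893, 0.554 to 1.43). Cdh3, which encodes P-cadherin, joined a bin inside Cdh1, the E-cadherin gene, at 85 kb with 27 and 26 (0.918, 0.515 to 1.63). Cldn1, a claudin gene of tight junctions, had 14 contacts in WT and 24 in DKO at pixels of different bins, 135 and 115 kb long. They were joined as 1 contact, but neither had a pixel of the other list within 2 bins. Dsg3, Dsp, Perp and S100a10, listed in DKO alone, had 16, 21, 20 and 16 contacts, and a WT pixel lay within 2 bins for Perp and S100a10.

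Of the DNA methylation genes 3 of 18 were at a contact. Gadd45b was described above, and Uhrf1, the cofactor of maintenance methylation, with 13 contacts, and Zbtb38, a methyl-CpG binding protein gene, with 19, were in WT alone. Neither Tet2 nor Tet3 had a member pixel in either library. Of 17 loop architecture genes 1 was at a contact, the cohesin loader gene Mau2 with 15 contacts in WT. The proliferation genes had 3 of 27. Mki67 had 24 and 26 contacts (0.986), at a bin also within 5 kb of an end of Ptpre. Ccnd2 had 23 and 20 at nearby bins, and Top2a 19 in WT alone. Basement membrane genes had 2 of 20, the integrin gene Itga3 with 26 contacts and Dag1 with 17, both in WT alone, though a DKO pixel lay within 2 bins of 1 of the 2 Itga3 pixels.

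Genes that mark other lineages of skin were looked up in the same way. Of 10 melanocyte genes none, 3 of 18 dermal papilla and fibroblast genes and 1 of 14 immune, endothelial and nerve genes had a member contact. Col1a1, a collagen gene of fibroblasts, had 26 and 20 contacts at the shared pixel (0.979), and Pecam1, an endothelial gene, had 32 and 32 (1.05). Col1a2 with 13 was listed in WT alone and Pdgfra with 19 in DKO alone. A contact at such a gene says nothing of its transcription. In all, 23 list genes had a pixel at the same bins in both libraries. At 1 pixel per gene, the one whose lower count of the libraries was highest, the DKO/WT ratios were from 0.728 to 1.37, 14 lower and 9 higher, and these intervals included 1. The Gadd45b pixel chosen above for its ratio, at 0.593, is outside that range.

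**Figure D5:**
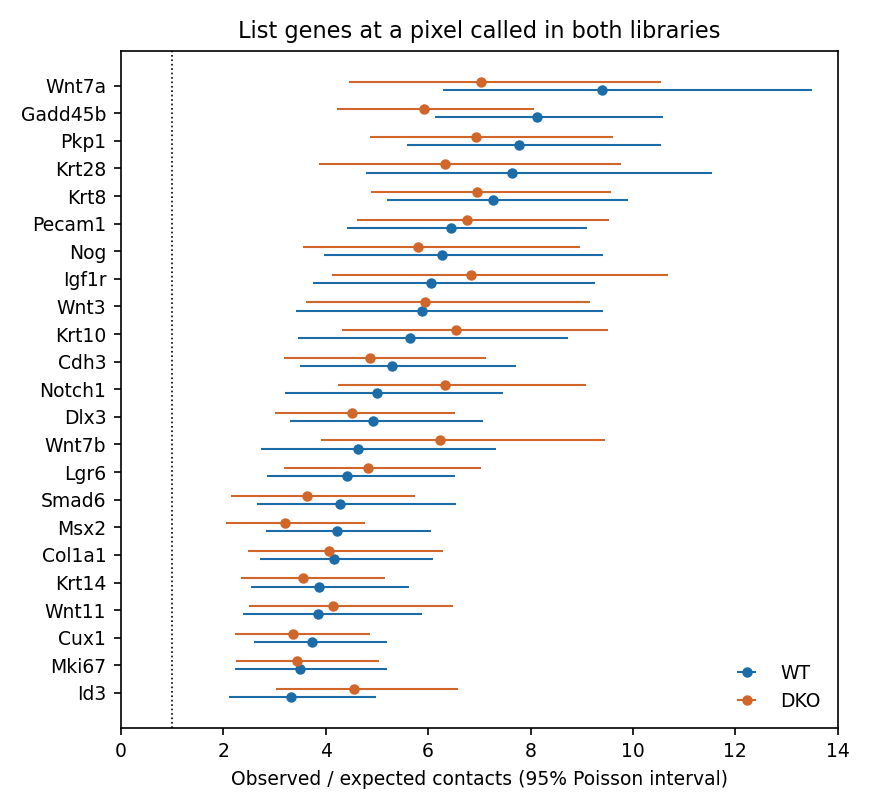
Observed over expected contacts (horizontal axis) with exact 95% Poisson intervals for the 23 list genes with a pixel at the same bins in both libraries (1 pixel per gene), WT in blue and DKO in orange, ordered by the WT value. The intervals of the libraries overlap for every gene, from Wnt7a at 9.40 and 7.03 to Id3 at 3.32 and 4.55, and the dotted line marks the expected level.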

How the data were processed

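Hi-C was run on 2 libraries. The authors deposited a list of enriched 5 kb pixels per library, written by juicer_tools 1.22.01 per the file headers, on GRCm38 per the submitters' processing notes. For each pixel the authors deposited an observed contact count, raw and not normalised. The deposited expected contacts of 4 neighbourhoods are a signal in the unit of the counts. The deposited columns that number the class of expected counts are a score. The deposited q-values (false discovery rates) were all under 0.1. Pixels that were not called have no value. The sources used here do not give read depth, aligner or read filters.

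The membership rule was applied to each list. Gene ends were taken from RefSeq (GRCm38.p6), with 21887 placed protein-coding genes. Strand came from the RefSeq promoter table, and genes outside it have no start assigned. Enrichment was the observed over the donut expected count. Pixels with both anchors within 20 kb of each other were linked into a contact (single linkage), and matched across lists within 2 bins where stated. There were 34 WT and 36 DKO members with a donut expected count under 1, whose enrichment is not printed. Coordinates are 1-based.

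No test was run, since each genotype has 1 library. Intervals are exact at 95%, Poisson for counts, conditional binomial for ratios, Clopper-Pearson for shares and order statistics for medians, and cover counting error only. Scripts used Python 3.11.15, numpy 2.4.6, pandas 2.3.3, scipy 1.17.1 and matplotlib 3.10.9 and were tested on simulated data.

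Genes were named by rule. These were the 8 pixels of both lists with the highest lower enrichment of the libraries (at least 20 counts and an expected count of at least 1 in each). Next came the 4 highest and 4 lowest DKO/WT ratios at 30 or more counts, 1 pixel per contact. Then followed up to 4 contacts of 3 or more pixels per library without a counterpart, the 6 genes with the most contacts, and up to 3 genes from each of 13 lists, with Tet2, Tet3 and Krt14. Of the pixels these rules chose, 3 are not reported here. Other list genes were added with their values seen. The members and lists were chosen with earlier results of these data known. Alternatives covered the false discovery rate, observed and expected counts, gene-end window, chromosomes, linkage, matching and neighbourhood.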

Additional observations from a re-analysis of the deposited data

How the results depend on the processing

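There were 125 alternative values over 16 results and 12 settings. The DKO/WT ratio of member counts stayed below 1 wherever it was computed, from 0.756 to 0.889. The median enrichment was slightly higher in WT by the main rule, at 4.97 against 4.94. It was higher in DKO with FDR under 0.01, with at least 20 contacts, and over the bottom-left and horizontal expected counts. Under the other settings it was higher in WT or equal. The intervals of the libraries overlapped in each case where DKO was higher. By the limits used, 1.5 times for a count of members and the 95% interval for the other values, 82 stayed within and 43 moved. No paired analysis was possible because there is a single library of either genotype, and no replicate could be left out. With FDR under 0.01 in all neighbourhoods there were 788 WT and 596 DKO members, 51.0% of the DKO members were in both lists, the median enrichment was 5.63 and 5.81, the share inside the anchored gene was 18.1% in WT and the share outside gene bodies 53.0% in DKO. With at least 20 observed contacts there were 765 and 590 members, 43.0% and 55.8% were in both lists, the median span was 90.0 and 85.0 kb, the median enrichment 5.06 and 5.15 and the share inside the anchored gene 18.7% and 18%. With the gene end inside the anchor bin there were 1219 and 978 members, within 1.5 times and outside the counting intervals, the median enrichment was 4.78 and 4.76, the share of starts 55.0% and 57.6% and the share inside the anchored gene 11.7% and 9.82%, and with a 10 kb window that last share was 19.7% and 18.1%. With 1 pixel per contact, the one with the highest count, there were 885 and 787 members, a ratio of 0.889. The median enrichment was 5.14 and 5.05, and 13.9% of WT lay inside the anchored gene. Of these pixels 26.4% and 29.7% were also the pixel kept in the other library. That is a narrower match than being anywhere in the other list. Shares in the other list were 68.2% and 74.1% within 1 bin and 74.2% and 79.6% within 2 bins. The median enrichment was 4.59 and 4.68 over the bottom-left expected count, 4.14 and 4.19 over the horizontal and 4.15 and 4.15 over the vertical. Stricter filters leave fewer pixels by construction, and the cause of the other shifts was not tested. A member of under 16 counts was seldom called at the same bins in the other list, which limits what absence from a list can show.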
